A study of Chlamydomonas reinhardtii with 6 samples.

Results

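The gene set of nitrate and ammonium uptake and assimilation was defined by gene identifiers: the nitrate reductase gene NIT1, the nitrite reductase gene NII1, the nitrate transporter genes NRT2.1 and NRT2.2, the glutamine synthetase genes GLN1 and GLN2, and a pair of ammonium transporter genes. Of these 8 genes, 3 had values among the 13452 genes of the table used, namely the ammonium transporter genes Cre13.g569850 and Cre09.g400750 and GLN1 (Cre02.g113200). The other 5 were not analysed here. The authors' deposited table describes both transporter genes as ammonium transporters, and the name GLN1 comes from the definition of the set.

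Nitrate enters an algal cell through membrane transporters and is reduced to nitrite and then to ammonium by nitrate and nitrite reductase. Ammonium can also enter directly through proteins of the AMT family. Glutamine synthetase joins ammonium to glutamate, and the glutamine so formed feeds the rest of nitrogen metabolism. In Chlamydomonas, the genes of nitrate use are known to be repressed by ammonium.

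RNA was sequenced from 6 independent cultures of Chlamydomonas reinhardtii strain CC-125 (137c mt+), a unicellular green alga, with 3 cultures under UV-B and 3 without. All were stationary cultures in TAP medium in petri dishes, under dim white tubes giving 3.6 µmol m-2 s-1, while narrowband tubes added UV-B at 0.07 mW/cm2. For 1 h a filter cutting off below 311 nm stood over the UV-B cultures and one cutting off below 360 nm over the no UV-B cultures, so the groups differ in all light between these wavelengths. The nitrogen source of TAP medium is ammonium, and CC-125 is known as a strain that carries mutations in NIT1 and in the nitrate regulator gene NIT2 and does not grow on nitrate; both statements are background that the labels do not give. Each library held between 7868534 and 11972794 reads over the genes of the table.

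Values are normalised read counts on a scale close to CPM. They are shares of a library, so fewer cells with a transcript and less transcript per cell cannot be told apart. Fold changes are UV-B over no UV-B, taken after adding 1 to each value and converting to log2, so that changes of genes with low values come out too small. They come with the standard error and adjusted p of limma, fitted over 13415 genes with an adjusted p of 0.05 as the threshold. Much of the transcriptome differed between the groups: 59.0% of all genes tested passed that threshold, 29.5% raised and 29.6% lowered in the UV-B group. In 63.2% of genes the 3 UV-B values lay wholly to one side of the 3 no UV-B values, higher in 31.7% and lower in 31.6%.

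The ammonium transporter genes rose under UV-B and the glutamine synthetase gene GLN1 fell. All 3 genes with values passed the threshold, and in each the groups stood apart without overlap, as they did in 63.2% of all genes. The transporter genes had few reads and rose 5.71-fold and 2.31-fold in their means, while GLN1 had many reads and fell by 26.9%. On the log2 scale the median change of all genes tested was 0.00, and the median of the absolute change was 0.40. The absolute change was larger than that of Cre13.g569850 in 4.21% of genes, larger than that of Cre09.g400750 in 12.7%, and larger than that of GLN1 in 44.7%. Cre13.g569850 passed the filters on low values only through the UV-B libraries, so its place among all genes was favoured by these filters.

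**Figure D1:**
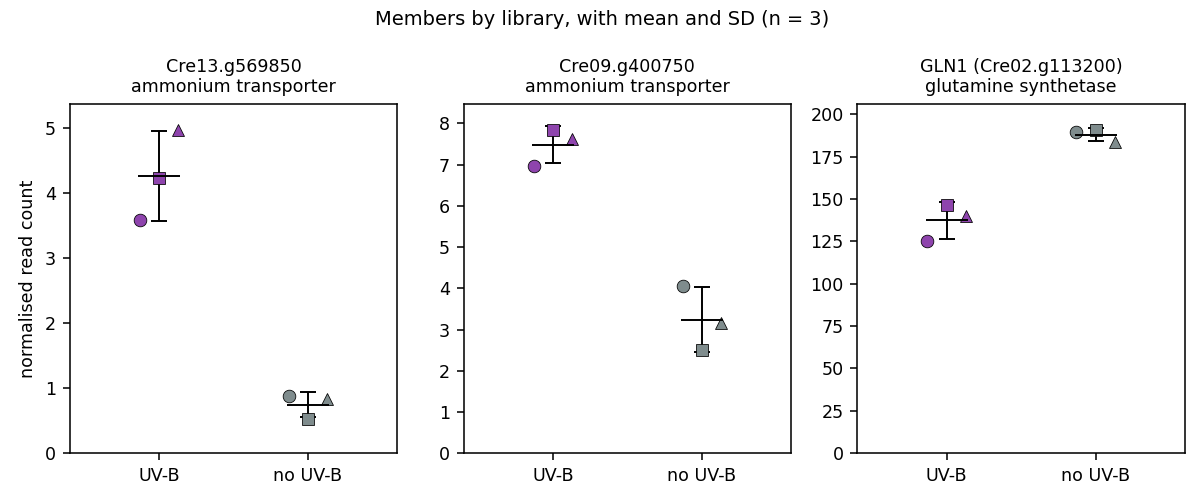
Normalised read count of each of the 3 genes in each library (points, with a shape for each replicate number), with the group mean and SD (n = 3 per group) and an axis from 0. The UV-B libraries lie above the no UV-B libraries for both ammonium transporter genes and below them for GLN1, with no overlap. Such a lack of overlap was seen in 63.2% of all genes tested.

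Cre13.g569850 had normalised read counts of 3.58, 4.23 and 4.97 in the UV-B libraries, against 0.877, 0.528 and 0.832 in the no UV-B libraries. Every UV-B library lay above every no UV-B library, with a gap of 2.70 between the groups. The means were 4.26 ± 0.695 under UV-B and 0.746 ± 0.190 without (SD, n = 3 each), a 5.71-fold difference. The log2 fold change was 1.59 ± 0.19 (SE; limma adjusted p = 1.67e-08). The gene had 38, 41 and 60 reads in the UV-B libraries, against 8, 4 and 10 reads in the no UV-B libraries. The ratio of the pooled reads, 139 under UV-B and 22 without, each relative to effective library size, was 5.60, with an exact 95% interval of 3.56 to 9.23 that covers counting error only. In 0 of the no UV-B libraries did the value reach 1, so the gene passed the filter on low values only through the UV-B libraries. All genes of the table reach a CPM of 1 in at least 3 libraries, which this gene also does only through the UV-B libraries, so a gene this low without UV-B could be in the table only if it was higher under UV-B. The log2 fold change depended on how low values were treated: it was 0.69 with a pseudocount of 5 and 2.47 with edgeR on the recovered reads, past the threshold in both.

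Cre09.g400750 had normalised read counts of 6.97, 7.84 and 7.62 in the UV-B libraries, against 4.06, 2.51 and 3.16 in the no UV-B libraries. The groups again stood apart, by a gap of 2.92, and the spread among the no UV-B libraries was the wider one. The means were 7.48 ± 0.450 under UV-B and 3.24 ± 0.779 without (SD, n = 3 each), a 2.31-fold difference. The log2 fold change was 1.01 ± 0.17 (SE; limma adjusted p = 4.85e-06). With 242 reads under UV-B and 94 without, the ratio of pooled reads was 2.28 (exact 95% interval 1.79 to 2.93, counting error only). With a pseudocount of 5 the log2 fold change was 0.60. Among genes with means under 10 in both groups, to which both transporter genes belong, 23.3% were raised, and 3.85% were raised by at least 1 on the log2 scale. Cre09.g400750 lay close to that cut. Its log2 fold change was 0.88 without no UV-B replicate 2 and 0.98 without UV-B replicate 2. With other single libraries left out it stayed past 1, up to 1.15.

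**Figure D2:**
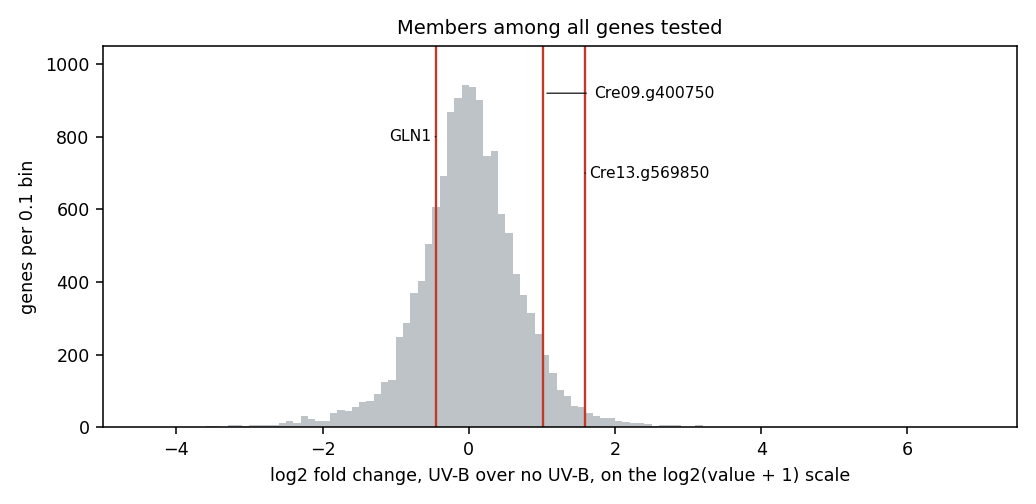
Number of genes (vertical axis) by log2 fold change of UV-B over no UV-B on the log2(value + 1) scale (horizontal axis) for all 13415 genes tested; red lines mark the 3 genes of the set. The transporter genes Cre13.g569850 at 1.59 and Cre09.g400750 at 1.01 lie on the right flank of the distribution, and GLN1 at -0.45 lies near its middle. The place of Cre13.g569850 was favoured by the filters on low values, which it passed only through the UV-B libraries.

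The ratio of one transporter gene to the other asks whether they moved by different amounts. Cre13.g569850 took 33.9%, 35.0% and 39.5% of the reads of the pair in the UV-B libraries, against 17.8%, 17.4% and 20.8% in the no UV-B libraries. The 3 UV-B shares all lay above the 3 no UV-B shares. Cre13.g569850 passed the filter on low values only through the UV-B libraries. A higher share under UV-B was thus favoured by the filter, and neither the shares nor the ratio below are independent support for a difference. Over pooled reads the share was 36.5% under UV-B (exact Clopper-Pearson 95% interval 31.6% to 41.5%) and 19.0% without (12.3% to 27.3%), and the intervals cover counting error only. The within-library log2 ratio of Cre13.g569850 to Cre09.g400750, on values with 1 added, was -0.70 ± 0.14 under UV-B and -1.27 ± 0.14 without (SD, n = 3 each). The difference of 0.58 had p = 0.1 in a two-sided exact permutation test over libraries, the smallest p that 3 against 3 allows, so the threshold was out of reach. This difference was 1.18 with a pseudocount of 0.1 and 0.08 with a pseudocount of 5. The other 3 pairs of the design could not be formed from the genes with values.

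A pair of further genes carries the category of ammonium transport in the authors' deposited table, and they went opposite ways. That table lists only genes the authors called as changed at least 2-fold, so ammonium transport genes that changed less are not described in it; of its 1069 annotated genes 54.8% were raised and 45.2% lowered. Cre07.g355650, described there as another ammonium transporter, had values of 4.05, 4.44 and 4.80 in the UV-B libraries, against 1.65, 2.24 and 1.83 in the no UV-B libraries. Its log2 fold change was 0.90 ± 0.18 (SE; limma adjusted p = 5.47e-05), from 144 reads under UV-B and 54 without; it was 0.45 with a pseudocount of 5. The gene of an Rh protein (Cre06.g284150), of the Rhesus family that is related to the AMT transporters, fell. It had values of 6.79, 7.63 and 8.20 in the UV-B libraries, against 34.6, 30.2 and 26.1 in the no UV-B libraries. That is a 4.02-fold lower mean under UV-B and -1.87 ± 0.12 (SE) as a log2 fold change (adjusted p = 2.08e-14).

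Added up, the values of the 3 ammonium transporter genes came to 16.2 ± 1.42 per library under UV-B and 5.89 ± 0.655 without (SD, n = 3 each). The Rh gene held 31.8% ± 0.218 of the summed value of the 4 genes under UV-B and 83.6% ± 1.71 without. The sum over the 4 genes was 23.7 ± 2.13 under UV-B and 36.2 ± 4.64 without. These sums count reads and are not per transcript length, so they weight long transcripts more. Cre07.g355650 and the Rh gene came from the authors' list of genes changed at least 2-fold. Cre13.g569850 passed the filter on low values only through the UV-B libraries. Ammonium transport genes that changed less are left out, so the differences in the sums and the share were favoured by the choice of genes.

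**Figure D3:**
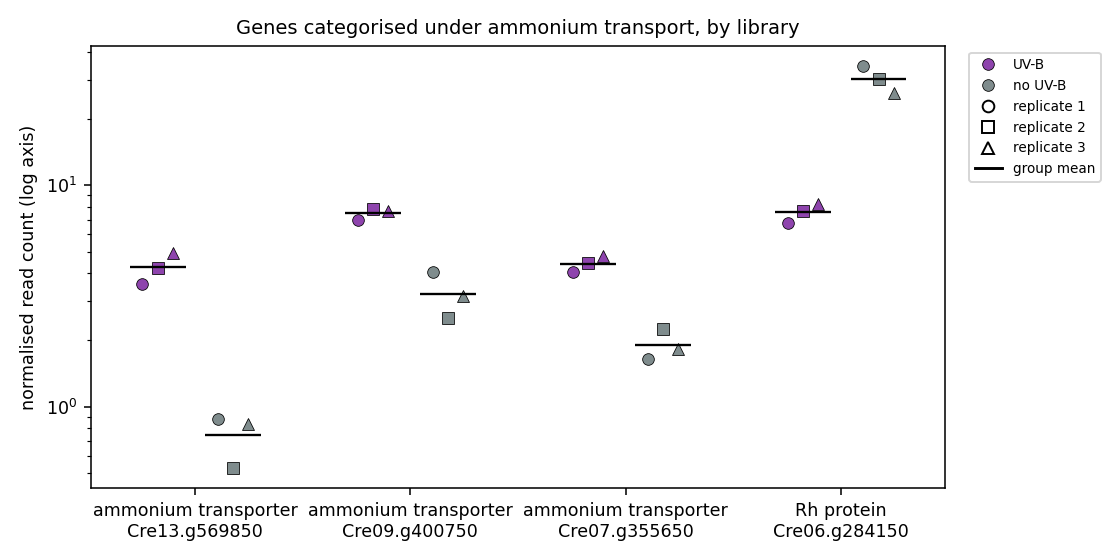
Normalised read count (log axis) of the 4 genes categorised under ammonium transport in each library, with the group means as lines. The 3 ammonium transporter genes are higher in every UV-B library than in any no UV-B library, and the Rh protein gene is lower in every one. Groups lay apart like this in 63.2% of all genes tested, with UV-B higher in 31.7% and lower in 31.6%. Cre07.g355650 and the Rh protein gene come from the authors' list of changed genes, and Cre13.g569850 passed the filter only through the UV-B libraries. The separation of these genes was favoured by that choice.

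GLN1, the glutamine synthetase gene of the set, fell. It had normalised read counts of 125, 146 and 140 in the UV-B libraries, against 190, 191 and 183 in the no UV-B libraries. The highest UV-B library lay 37.0 below the lowest no UV-B library. The means were 137 ± 10.8 under UV-B and 188 ± 3.87 without (SD, n = 3 each). The log2 fold change was -0.45 ± 0.07 (SE; limma adjusted p = 2.58e-06), with a 95% interval of -0.60 to -0.31. With 4442 reads under UV-B and 5379 without, the ratio of pooled reads was 0.732 (exact 95% interval 0.704 to 0.762, counting error only). Among genes with a mean of at least 100 in 1 group, 47.9% were lowered. With the libraries scaled to an equal total, the log2 fold change was -0.35 and still past the threshold.

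The gene whose values ran most like those of GLN1 was Cre09.g399800, with a Pearson correlation of 0.998 on the log2(value + 1) scale over the 6 libraries. It was picked from 7338 genes with a mean of at least 10 in 1 group, of which 821 had a correlation above 0.95, and all of these share the split into the same groups. Its own values were 10.2, 11.2 and 11.0 in the UV-B libraries, against 13.4, 13.7 and 13.2 in the no UV-B libraries. Its log2 fold change of -0.29 ± 0.12 had a limma adjusted p of 0.035, which ran up to 0.201 over the alternatives.

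The authors' deposited table annotates 3 other genes around glutamine and glutamate, and these fell. Genes of this kind that changed less than 2-fold are not listed there, and 45.2% of its annotated genes were lowered. Their means were 2.78-fold, 4.81-fold and 3.69-fold lower under UV-B, in the order given here, and that of GLN1 was 1.37-fold lower; the differences between these genes were not tested. The gene g2996, categorised under glutamine synthetase without a description, had values of 1.51, 1.75 and 0.911 in the UV-B libraries, against 3.73, 3.56 and 4.32 in the no UV-B libraries. Its log2 fold change was -1.04 ± 0.19 (SE; limma adjusted p = 2.00e-05) from 44 reads under UV-B and 113 without, and it was -0.47 with a pseudocount of 5 and -1.51 with edgeR. Both genes described as glutamate dehydrogenases, enzymes that can release ammonium from glutamate, also fell. Cre05.g232150 had values of 204, 212 and 244 in the UV-B libraries, against 1068, 1048 and 1056 in the no UV-B libraries, or -2.26 ± 0.07 (SE) as a log2 fold change (adjusted p = 1.06e-21). Cre09.g388800 had values of 9.52, 10.8 and 11.3 in the UV-B libraries, against 40.0, 39.7 and 37.1 in the no UV-B libraries, or -1.79 ± 0.10 (SE) as a log2 fold change (adjusted p = 1.48e-15). In GLN1 and in these 3 genes, which were listed as changed beforehand, every UV-B value lay below every no UV-B value, as in 31.6% of all genes tested.

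**Figure D4:**
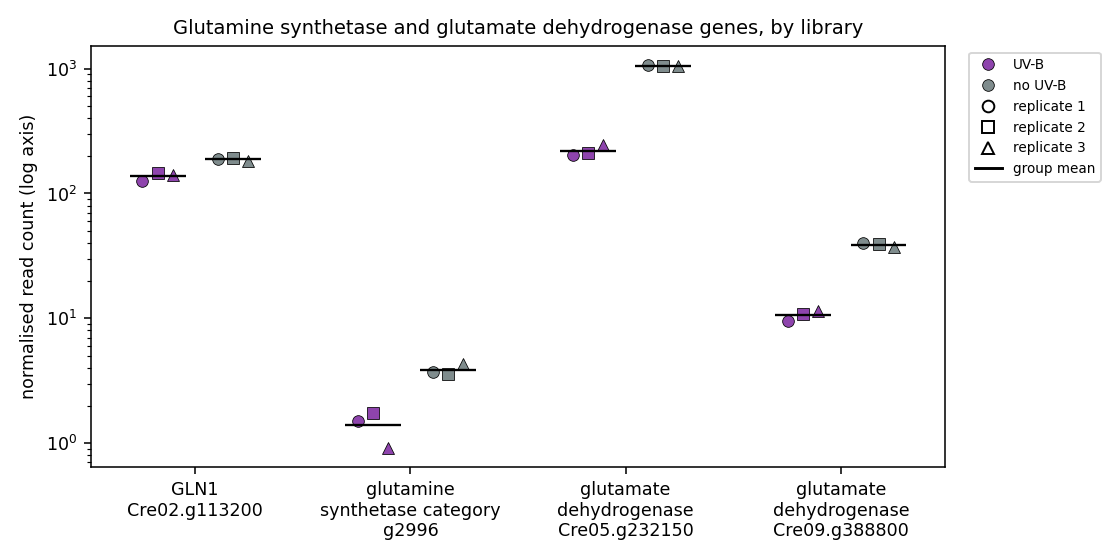
Normalised read count (log axis) of GLN1, the glutamine synthetase category gene g2996 and both glutamate dehydrogenase genes in each library, with the group means as lines. All 4 genes are lower in the UV-B libraries, with the groups closest for GLN1 and farthest apart for Cre05.g232150 on this axis. All except GLN1 come from the authors' list of genes changed at least 2-fold, so their wider separation was favoured by that choice. Every UV-B value lay below every no UV-B value in 31.6% of all genes tested.

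Nitrogen genes outside the set were gathered by words in the descriptions and categories of the authors' deposited table. Since that table lists changed genes only, the number past the threshold says nothing by itself, and only directions are counted. Of 11 such genes 4 rose and 7 fell. Their median log2 fold change was -1.04, against 0.87 for the 1069 annotated genes of that table. Because the table leaves out genes that changed less than 2-fold, the size of either median says little. The raised share of the table's annotated genes was 54.8%, as given above. By group, 1 of 2 ammonium transport genes rose, 0 of 3 genes around glutamine and glutamate, and 1 of 2 genes of the molybdenum cofactor. In the word list for nitrate and nitrite 1 of 3 genes rose, and in that for urea and purine nitrogen 1 of 1. Only g4546 of the nitrate and nitrite list is described by nitrite, and it fell. The gene of that list that rose, Cre07.g315400, is likened to a nitric oxide associated protein. Its remaining gene, Cre07.g328800, is described by nitrogen-starved gametogenesis and fell. The counts of 4 and 7 include these word matches.

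The largest change of the 11 was in g4546, described as a formate and nitrite transporter. It had values of 4.62, 4.13 and 6.38 in the UV-B libraries, against 69.9, 75.9 and 73.8 in the no UV-B libraries. The mean was 14.5-fold lower under UV-B, which is -3.63 ± 0.11 (SE) as a log2 fold change (limma adjusted p = 1.05e-21). LCIA (Cre06.g309000), an anion transporter gene that the deposited table also names NAR1.2 and that carries the same transporter domain, went the other way, with values of 26.3, 24.1 and 24.2 in the UV-B libraries against 6.69, 4.49 and 3.49 in the no UV-B libraries. Its log2 fold change was 2.17 ± 0.15 (SE; adjusted p = 1.01e-13). LCIA was added after its values were seen and is not among the 11 genes counted above.

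The molybdenum cofactor, which nitrate reductase needs, was represented by genes that moved apart. Cre13.g602900, described as a hypothetical molybdopterin biosynthesis protein, rose to a mean of 3.43 ± 0.303 under UV-B, against 1.41 ± 0.357 without (SD, n = 3 each). Its log2 fold change was 0.89 ± 0.18 (SE; limma adjusted p = 0.00014), and it was 0.40 with a pseudocount of 5. Cre09.g390050, a molybdenum cofactor carrier protein gene, fell to 15.4 ± 0.609 under UV-B, against 32.3 ± 1.09 without, or -1.02 ± 0.10 (SE) as a log2 fold change (adjusted p = 1.58e-10). Urate oxidase II (Cre12.g504950), an enzyme of purine breakdown, rose to 138 ± 8.44 under UV-B, against 64.9 ± 1.15 without, or 1.07 ± 0.07 (SE) as a log2 fold change (adjusted p = 9.30e-14). A gene likened to a nitric oxide associated protein (Cre07.g315400) rose to 8.42 ± 1.14 under UV-B, against 3.74 ± 0.551 without; its log2 fold change of 0.99 ± 0.16 (SE; adjusted p = 3.61e-06) was 0.62 with a pseudocount of 5. A gene described by its expression in nitrogen-starved gametogenesis (Cre07.g328800) fell to 32.4 ± 2.63 under UV-B, against 103 ± 5.76 without, or -1.64 ± 0.08 (SE) as a log2 fold change (adjusted p = 4.71e-17).

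**Figure D5:**
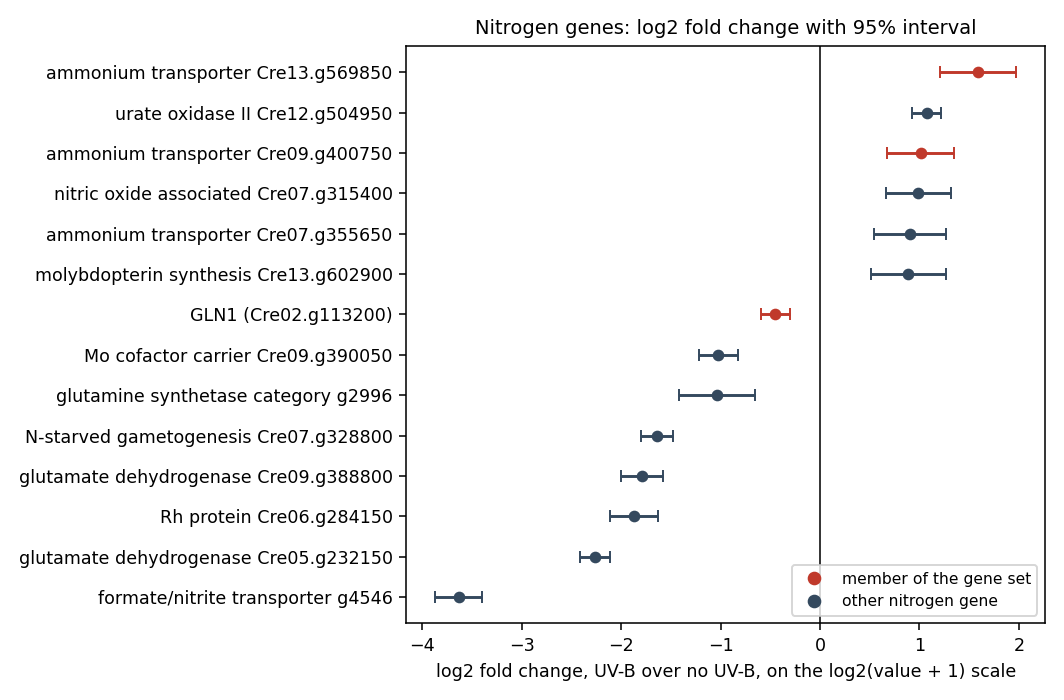
Log2 fold change of UV-B over no UV-B (horizontal axis, log2(value + 1) scale) with limma's 95% interval for the 3 genes of the set (red) and the 11 other nitrogen genes (dark). The 11 other genes come from the authors' list of changed genes, so their distance from 0 was fixed by that choice; 6 genes lie to the right of 0 and 8 to the left, and 59.0% of all genes tested passed the threshold.

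NIT1, NII1, NRT2.1 and NRT2.2 lie together in the RefSeq order of genes (assembly Chlamydomonas_reinhardtii_v5.5), with 1 other gene among them that was not analysed here, and the genes flanking the group had values. Cre09.g410700, next to NII1, had values of 271, 274 and 279 in the UV-B libraries, against 248, 245 and 222 in the no UV-B libraries, or 0.21 ± 0.07 (SE) as a log2 fold change (limma adjusted p = 0.011). That call was lost without no UV-B replicate 3 (adjusted p = 0.080) and in limma without a trend (adjusted p = 0.091). The next gene outward, Cre09.g410600, fell to 132 ± 7.18 under UV-B, against 200.1 ± 1.06 without (log2 fold change -0.60 ± 0.07; adjusted p = 7.90e-09). On the other side, Cre09.g411050 had values of 3.86, 7.32 and 6.46 in the UV-B libraries, against 10.2, 8.18 and 8.57 in the no UV-B libraries. Its log2 fold change of -0.57 ± 0.17 (adjusted p = 0.00463) did not pass without UV-B replicate 1, at -0.34 (adjusted p = 0.079). Cre09.g411100 fell to 1336 ± 59.9 under UV-B, against 1686 ± 87.9 without (log2 fold change -0.34 ± 0.08; adjusted p = 0.000334). Cre09.g410600, Cre09.g411050 and Cre09.g411100 thus fell and Cre09.g410700 rose, while 29.6% of all genes tested were lowered and 29.5% raised. The rise of Cre09.g410700 was small, and its call and that of Cre09.g411050 were lost in the settings named above. None of the 4 carries a description in the files used.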

How the data were processed

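The 8 genes, the word lists and the tests were chosen with earlier results of these data known. The submitters' processing notes name the tools HTSeq 0.5.3p9, edgeR 3.4.2 and TopHat2. The genome build, gene models and strand setting are not stated in these sources, so no coordinates are given and reads of near-identical copies or overlapping genes may be divided between them. The authors deposited a normalised signal per gene, that is read counts over an effective library size. Their own comparison was deposited by the authors for 2596 genes as p-values, adjusted p-values, log2 CPM and log2 fold changes, whose smallest absolute log2 fold change is 1.00; it supplied descriptions and categories. Columns were matched to samples through descriptions and titles (0 columns left unused).

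All values (100% in each library) were whole multiples of the value of 1 read to within 0.001 reads; where no gene had exactly 1 read (no UV-B replicate 3), the step was the common spacing of values. All 13452 genes have a CPM of at least 1, relative to the library total, in at least 3 libraries. limma 3.58.1 with a trend (R 4.3.3) was fitted to log2(value + 1) of the genes that reached 1 in 3 or more libraries. It compared UV-B against no UV-B, with Benjamini-Hochberg adjustment. The fit was first run on simulated data in which only a small part of the genes changed. Far more genes passed here, so that run does not bear on the calls in these data. limma called 7920 genes; on recovered reads 7943 were called by edgeR 4.0.16 and 6832 by DESeq2 1.42.0. Python 3.11.15, pandas 2.3.3 and SciPy 1.17.1 made the other tables. Named were all genes of the set with values, the other nitrogen genes that changed most or had a mean of at least 10, the neighbours of the nitrate genes, and the gene most like GLN1; in the end all 11 nitrogen genes are named, and LCIA was added after its values were seen. Words such as COP-II and acetylglutamate were barred from the lists after the annotation had been seen. Other settings were pseudocounts of 0.1, 0.5 and 5, other filters and scalings, robust moderation or no trend in limma, a block for the replicate number, each library left out, and an adjusted p of 0.01.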

Additional observations from a re-analysis of the deposited data

How the results depend on the processing

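The 3 genes of the set kept their direction and stayed past the threshold wherever they were tested. Cre13.g569850 passed the filters on low values only through the UV-B libraries. Its direction was favoured by these filters, so keeping it over the settings is not independent support for the rise. Cre13.g569850 was not tested with a minimum value of 5, where 2 genes of the set remained. The log2 fold change ran from 0.69 to 2.49 for Cre13.g569850, from 0.60 to 1.21 for Cre09.g400750 and from -0.50 to -0.35 for GLN1 over the alternatives, and from 1.49 to 1.68, 0.88 to 1.15 and -0.50 to -0.39 when each library was left out in turn. The number of genes past the threshold ran from 6396 to 8102 over the settings. With words also matched in the authors' domain column, chosen after seeing the data, the nitrogen list grew to 23 genes past the threshold, mostly ABC transporters. Same-numbered libraries deviated together with correlations of 0.045, 0.024 and 0.12, so the numbers were not taken to pair the samples; the replicate block gave 8102 genes against 7920 and called the same 3 genes of the set. Low read numbers limit the transporter genes: Cre13.g569850 had 4 to 10 reads in the no UV-B libraries.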
